A study of Mus musculus with 4 samples.

Results

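The genes of the motile cilium axoneme were followed across cell classes and time points in single-nucleus RNA sequencing of the mouse forebrain after stroke. Members were chosen by name alone: every gene whose symbol starts with Dnah, Cfap, Rsph, Tekt, Spag or Dnaic followed by a digit, together with Hydin. The rule took 63 of the 46983 genes in the files, and 59 of them reached 10 unique molecular identifiers (UMIs, each standing for 1 captured RNA molecule) over the nuclei analysed. Of the other 4, Spag17os and Spag11b were at 0 UMIs, Spag11a had 1 and Dnah2os had 2. The study compared a sham control with brains at day 1, day 3 and day 7 after permanent middle cerebral artery occlusion (MCAO), a stroke model that closes the vessel by coagulation and transection. All animals were male C57Black/6 mice aged 3 months, and nuclei from 3 hemispheres were pooled into each library. With 1 library per group, no test between groups could be run, so ratios are given with 95% intervals that cover counting error only and not the spread between animals.

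Motile cilia beat by means of the axoneme, a cylinder of outer doublet microtubules around a central pair. Outer and inner dynein arms, built on heavy chains of the Dnah family and on intermediate chains, slide neighbouring doublets, and radial spokes and the central pair set the rhythm. Tektins and other lumen proteins stiffen the doublets. In the brain, multiciliated ependymal cells line the ventricles and move the cerebrospinal fluid, whereas neurons and astrocytes carry a single immotile primary cilium that shares little of this machinery. Names in the Spag and Cfap series were given for testis or cilium origin and not for function, so the rule also took genes that act elsewhere: Spag9, for instance, is a scaffold of kinase signalling and motor transport, and Spag5 is a protein of the mitotic spindle.

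The libraries held 23285489 to 42963698 UMIs in all, and after removal of empty droplets and putative doublets 7802 nuclei were kept, with 2119, 1018, 3093 and 1572 in sham control and on days 1, 3 and 7. No pair of libraries shared more than 3 nuclear barcodes. The published nuclei per time point fit the deposited libraries only if the labels of both later days are exchanged. The deposited labels were kept. Such an exchange would swap the day 3 and day 7 values of every comparison with sham control below and would leave the values summed over libraries as they are. The surgical protocol in the labels names intact cortical tissue as control, whereas the condition label reads sham control and the design names hemispheres. The sham control library held 332 striatal projection neuron nuclei. Nuclei were clustered with the members and the other cilium genes left out of the clustering, and clusters were named from marker genes, so that each class name below stands for nuclei that are like that cell type by its markers.

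Ependymal-like nuclei were few: 47 of 7802, or 0.602% (exact 95% interval 0.443 to 0.80%). Sham control gave 14 (0.661%, interval 0.362 to 1.11%). The injured libraries gave 7 on day 1 (0.688%, 0.277 to 1.41%), 20 on day 3 (0.647%, 0.395 to 0.997%) and 6 on day 7 (0.382%, 0.140 to 0.829%). The intervals of all 4 libraries overlapped. These nuclei shared a cluster of 69 with 22 choroid plexus-like nuclei, and the cluster was divided afterwards by k-means on its principal components. Ependymal markers outside the member list were clear in the 47 nuclei: Foxj1, the master regulator of motile ciliogenesis, stood at 164 CPM (UMIs of the gene per 1000000 UMIs of the class), Tmem212 at 1028 CPM and Ccdc153 at 356 CPM, against 1.45, 2.09 and 1.54 CPM in nuclei outside the cluster. Foxj1, Tmem212 and Ccdc153 are on the list that named the class, so their height is not independent of the naming. Choroid plexus-like nuclei held 56.9, 5.17 and 0 CPM of them. Pifo, Trp73 and Nek5, also on the list, parted the classes less, at 80.0, 75.4 and 199 CPM against 72.4, 51.7 and 109 CPM. Mia and Cdhr4, both on the marker list, were at 0 UMIs in every nucleus. Ependymal marker UMIs outnumbered choroid plexus marker UMIs in 46 of the 47 nuclei, and also in 2 of the 22 choroid plexus-like ones. Ttr, the thyroid hormone carrier made by the choroid plexus, stood at 169 CPM in the ependymal-like and 20412 CPM in the choroid plexus-like nuclei.

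Axoneme genes were concentrated in the ependymal-like nuclei. Their summed level was 20614 CPM there (interval 20191 to 21044 CPM), 6302 CPM in choroid plexus-like nuclei (5953 to 6666 CPM), and between 706 CPM in oligodendrocytes and 1128 CPM in astrocytes in the other 10 named classes. Counted by gene, 41 of the 59 members were at least 10-fold higher in CPM in ependymal-like than in all other nuclei, beside 5.1% of the 20978 genes tested. The level was highest in the ependymal-like class for 45 members, beside 11.2% of all genes tested. The median ratio was 46.0 over the members and 0.781 over all genes tested. Leaving out any 1 of the 4 libraries gave 40 or 41 members at 10-fold or more and 44 to 48 highest in the class.

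**Figure D1:**
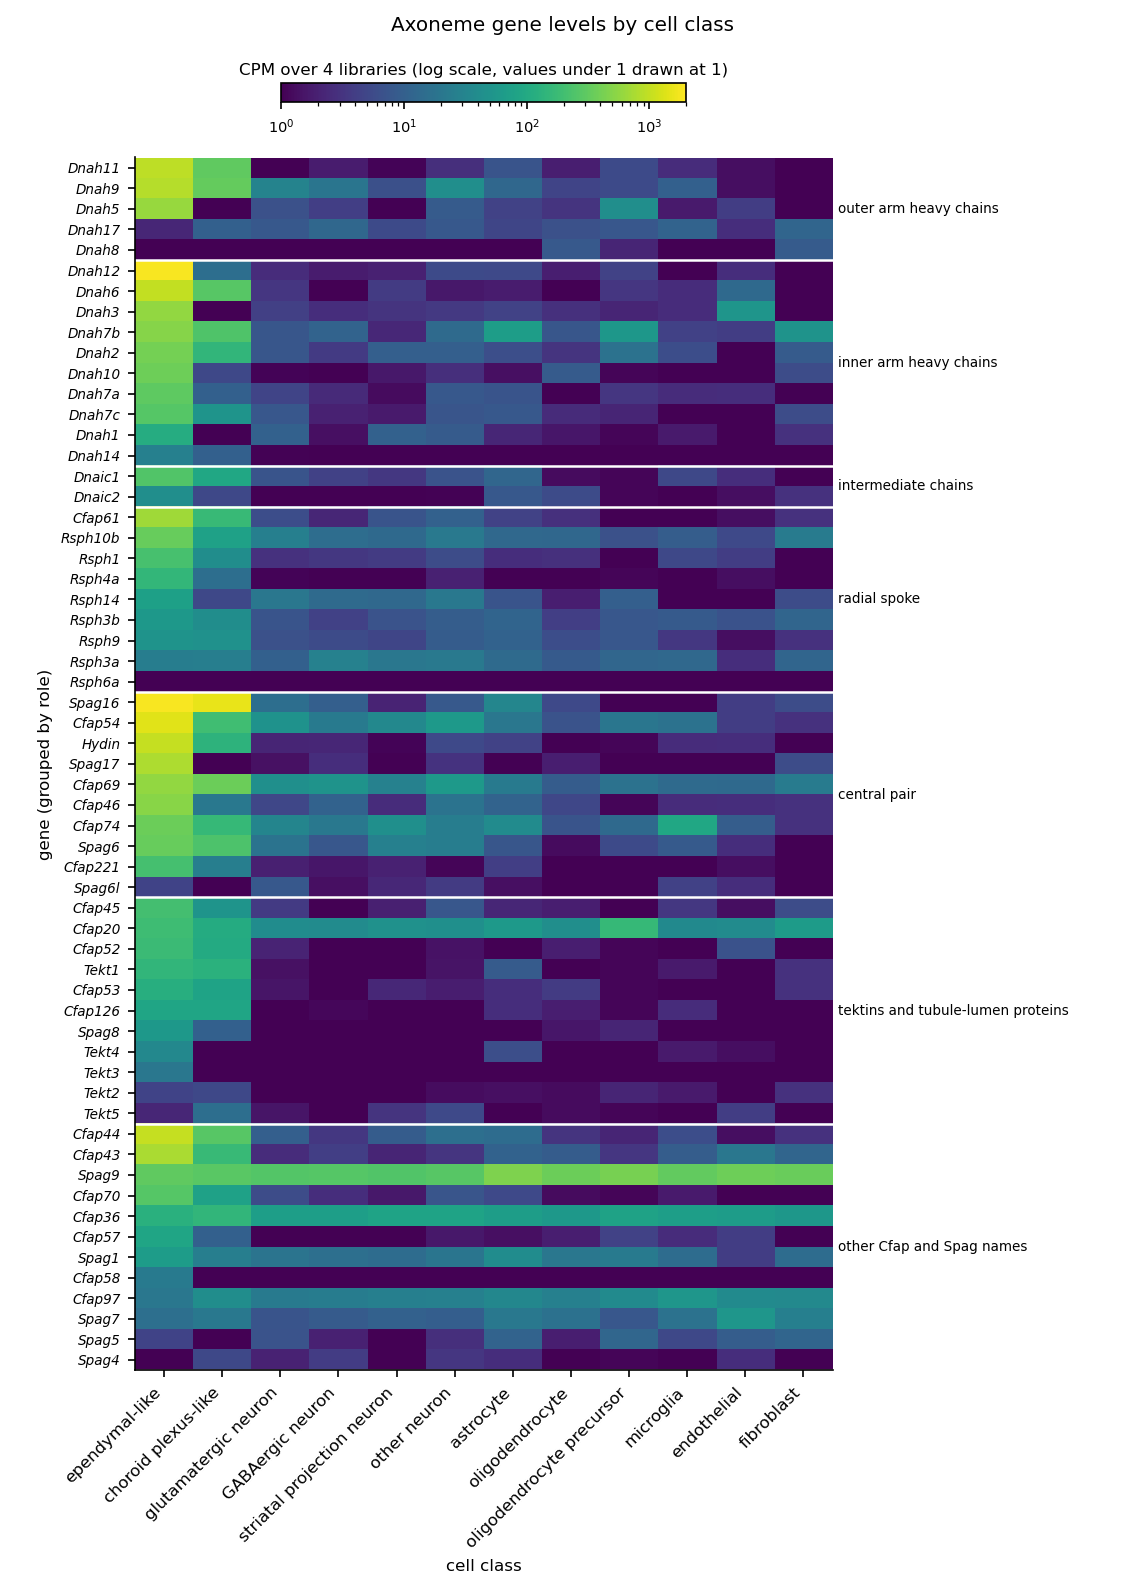
Level of the 59 members tested in each of the 12 named cell classes, as CPM summed over the 4 libraries, on a logarithmic colour scale with values under 1 CPM drawn at 1. Genes are grouped by role from top to bottom; the ependymal-like column on the left is the brightest for 45 members, and Spag9, Cfap36 and Cfap20 are bright in every class.

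The concentration held in every library. Sham control ependymal-like nuclei held 2562 of 17148 member UMIs, or 14.9% (interval 14.4 to 15.5%). The day 1 library followed with 13.2% (12.6 to 13.8%), the day 3 library with 14.6% (14.1 to 15.1%) and the day 7 library with 13.1% (12.6 to 13.7%). Over all libraries this came to 14.1% of member UMIs in nuclei that held 0.682% of all UMIs.

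Within single nuclei, members made up between 0.542% and 3.83% of the UMIs of an ependymal-like nucleus, with a median of 2.14%, and each nucleus held UMIs from 16 to 48 different members. The median was 0.582% in choroid plexus-like nuclei and lay between 0.0592% and 0.103% in the other named classes. Of the 7733 nuclei outside the cluster, 3 reached the lowest ependymal-like value: an astrocyte-like nucleus at 0.857%, an endothelial-like one at 0.930% and a glutamatergic one at 0.677%, all from sham control and holding 15, 5 and 11 ependymal marker UMIs. The order was the same at equal depth: nuclei thinned to 1000 UMIs held a mean of 22.2 member UMIs in the ependymal-like class, 6.59 in the choroid plexus-like class and 0.702 to 1.18 elsewhere. Barcodes at or under 1000 UMIs, which hold mostly free RNA, gave 897 to 1022 CPM for the members summed, whereas nuclei other than the ependymal-like gave 836 to 891 CPM. The part of free RNA in the summed level of the other classes was not tested.

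**Figure D2:**
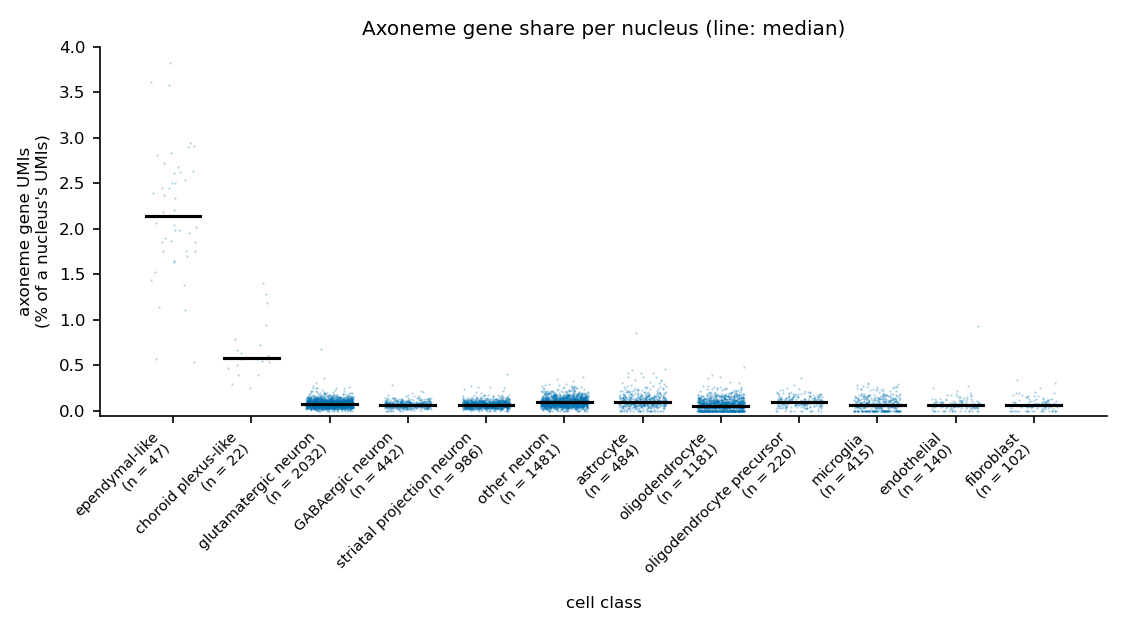
Percent of each nucleus's UMIs that came from the 63 members, by cell class, with 1 point per nucleus and a line at the class median. Ependymal-like nuclei (n = 47) lie between 0.542% and 3.83%, choroid plexus-like nuclei (n = 22) between 0.257% and 1.40%, and nearly all other nuclei under the lowest ependymal-like value.

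Outer dynein arm heavy chains split by gene. Dnah5, Dnah9 and Dnah11 were at least 10-fold higher in ependymal-like nuclei, whereas Dnah8 and Dnah17, known mainly from sperm, were not. Dnah11 (chromosome 12, 117877982 to 118199043, minus strand, GRCm38) stood at 829, 625, 1303 and 1020 CPM in these nuclei in sham control and on days 1, 3 and 7. All 4 values were far above the 2.73 CPM of the remaining nuclei, a ratio of 341 (285 to 410). Dnah9 (chromosome 11, 65831282 to 66168551, minus strand) stood at 858, 732, 995 and 775 CPM in the same order. Its ratio was only 31.8 (28.4 to 35.6), and the remaining nuclei held 26.6 CPM, with 42.9 CPM in the class of other neurons and 29.9 CPM in glutamatergic neurons. Dnah5, whose loss is a frequent cause of primary ciliary dyskinesia, stood at 541, 402, 863 and 707 CPM against 5.96 CPM elsewhere, a ratio of 103 (88.1 to 121). Dnah17 had 1 UMI and Dnah8 none in the 47 nuclei, where a count of 0 allows up to 6.85 CPM. Dnah17 was highest in GABAergic neurons at 12.6 CPM, and Dnah8 in fibroblasts at 8.87 CPM from 3 UMIs.

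Inner arm heavy chains were all concentrated in ependymal-like nuclei, with 10 of 10 members at least 10-fold higher there. Dnah12 (chromosome 14, 26693274 to 26891703, plus strand) gave 1666, 1357, 2554 and 2068 CPM in that order of libraries. The remaining nuclei held 3.26 CPM, so that the ratio of 577 (495 to 675) was the highest of the members tested, and 79.9% of all Dnah12 UMIs came from the 47 nuclei. Dnah12 was found in 46 of the 47 ependymal-like nuclei, with a median depth of 4829 UMIs, and in 2.12% of glutamatergic neurons, whose median depth was 10056 UMIs. Dnah6 stood at 996 CPM (ratio 271, 231 to 319) and Dnah3 at 583 CPM (ratio 141, 118 to 168). Dnah10 reached 377 CPM (ratio 178), Dnah2 413 CPM (47.6) and Dnah7b 503 CPM (40.3). Dnah7a, Dnah7b and Dnah7c are close copies on chromosome 1 whose reads may be split or lost between them, and all 3 stood at 40.3-fold or more. The lowest ratio in the group was 13 (9.51 to 17.5) for Dnah1 at 112 CPM. Dnah14, the least counted, had 12 UMIs in these nuclei, or 27.4 CPM. Of these, 10 came from sham control and 0, 1 and 1 from days 1, 3 and 7.

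Intermediate chains anchor the outer arm to the doublet, and both members were concentrated in ependymal-like nuclei. Dnaic1 stood at 209, 170, 343 and 340 CPM in sham control, day 1, day 3 and day 7, and Dnaic2 at 28.9, 17.8, 70.4 and 68.0 CPM from 2 to 8 UMIs per library. The ratios to the remaining nuclei were 40.4 (32.4 to 49.9) and 36.9 (21.0 to 61.6).

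Radial spoke genes were mixed, with 4 of 9 members at 10-fold or more. Cfap61, a protein of the spoke base, reached 678 CPM (ratio 96.5, 83.0 to 112), Rsph4a of the spoke head 153 CPM (135, 95.6 to 192), Rsph1 217 CPM (54.4) and Rsph10b 340 CPM (16.8). Rsph14, Rsph3b and Rsph9 were highest in ependymal-like nuclei too, but only 4.55-, 7.38- and 6.93-fold. Rsph3a, a close relative of Rsph3b, stood at 25.1 CPM there and 28.0 CPM in GABAergic neurons. Rsph6a, a spoke-head gene of sperm flagella, had no UMI in the ependymal-like nuclei and 21 in all others.

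Central pair genes gave 3114 of the 9024 member UMIs in the ependymal-like nuclei, and 9 of 10 were at least 10-fold higher there. Spag16 (chromosome 1, 69826970 to 70725132, plus strand) stood at 1515, 1615, 2316 and 2095 CPM in sham control, day 1, day 3 and day 7, and all 47 nuclei held it. The remaining nuclei averaged 15.8 CPM, a ratio of 117 (106 to 128). Hydin, a giant protein of the central pair projection, stood at 1003, 803, 1277 and 1061 CPM, with 3.26 CPM elsewhere (ratio 316, 268 to 375). Spag17 was more restricted still: 685, 607, 898 and 1088 CPM against 1.76 CPM, a ratio of 448 (361 to 560). No choroid plexus-like nucleus held a Spag17 UMI, although the same nuclei had 1547 CPM of Spag16. Cfap54 reached 1412 CPM and Cfap69 585 CPM, but with 42.9 and 42.7 CPM in the remaining nuclei their ratios were 32.9 and 13.7. Cfap46 (523 CPM, 63.2-fold), Cfap74 (365 CPM, 11.8-fold), Spag6 (345 CPM, 17.7-fold) and Cfap221 (212 CPM, 122-fold) completed the group. Spag6l was the exception at 2 UMIs in the ependymal-like nuclei. In the files the symbol Spag6 belongs to the copy on chromosome 16 and Spag6l to the copy on chromosome 2, and later annotation gives each the other's name, so under current names Spag6l is the ependymal gene.

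Tektins and tubule-lumen proteins included 8 of 11 members at 10-fold or more. Tekt1 stood at 148 CPM (ratio 79.5, 57.8 to 108), Cfap52 at 178 CPM (96.2), Cfap45 at 208 CPM (50.9), Cfap53 at 117 CPM (54.6), Spag8 at 57.1 CPM (82.7) and Tekt4 at 34.3 CPM (62.4). Tekt3 rested on 9 UMIs in the ependymal-like nuclei of 15 in all (ratio 218, 69.4 to 745), and it was the only member at 10-fold or more that passed the minimum of 10 UMIs just through the class where it was high. Cfap126, a lumen protein also called Flattop, was 76.8-fold higher in ependymal-like than in other nuclei, but its level was about the same in choroid plexus-like nuclei (88.0 CPM, 17 UMIs) and ependymal-like ones (86.8 CPM, 38 UMIs). Tekt2 and Tekt5 had 2 and 1 UMIs there. Cfap20, a conserved doublet protein that is made in cells of all kinds, reached 187 CPM with a ratio of 4.07, and oligodendrocyte precursors held 161 CPM.

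Among the remaining names, Cfap44 (1012 CPM, 88.3-fold), Cfap43 (758 CPM, 170-fold), Cfap70 (272 CPM, 53.1-fold), Cfap57 (86.8 CPM, 77.9-fold) and Cfap58 (22.8 CPM from 10 UMIs, 146-fold) were concentrated in ependymal-like nuclei. Cfap43 and Cfap44 form the link that tethers inner arm dyneins to the doublet. Spag1, a dynein assembly factor, was 3.56-fold higher there (2.37 to 5.14). Spag9 alone gave 18159 member UMIs and stood at 311 CPM in ependymal-like and 283 CPM in all other nuclei (ratio 1.10, 0.921 to 1.30), with its highest level in astrocytes at 465 CPM. Cfap36 stood at 123 against 74.8 CPM (1.65, 1.24 to 2.15) and was highest in choroid plexus-like nuclei at 150 CPM. Cfap97 was highest in microglia (53.7 CPM), Spag7 in endothelial nuclei (53.6 CPM) and Spag5 in oligodendrocyte precursors (12.2 CPM), each with fewer than 10 UMIs in the ependymal-like nuclei. Spag4 had none there. By cluster, Spag5 was highest in a glutamatergic cluster of 217 nuclei, at 22.3 CPM (16.2 to 29.9) from 44 UMIs.

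Introns were counted and the members span between 1.69 and 898 kb, so CPM values of different genes cannot be ranked as levels. On CPM per kb of gene span in ependymal-like nuclei Spag8 led at 25.3, followed by Rsph4a at 14.0, Cfap20 at 12.8 and Cfap44 at 11.5. Dnah12 stood at 9.50, the highest of the dynein heavy chains, and Cfap54, Hydin, Spag17 and Spag16 at 4.61, 3.01, 3.06 and 2.06. The order by CPM alone, in which Dnah12 and Spag16 stood at the top, was thus not the order per kb.

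A further limit is overlap between genes. In the reference annotation 40 members overlap another gene, and the strand setting of the counting is not given in the sources used here, so such reads may be shared. Among the 23 members tested that overlap none, 16 were at least 10-fold higher in ependymal-like nuclei and 16 were highest there.

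Choroid plexus-like nuclei held part of the program at a lower level. Their summed level was 6634, 5767, 6102 and 5563 CPM in sham control and on days 1, 3 and 7, and the counting intervals of the 4 libraries overlapped. Dnah9 (336 CPM), Dnah11 (316 CPM), Dnah6 (279 CPM), Cfap44 (279 CPM), Dnah7b (248 CPM) and Spag6 (238 CPM) were present. Spag17, Dnah3 and Dnah5 had no UMI in these 22 nuclei, and Dnah12 had 3 (15.5 CPM). The high Spag16 value owed 45.2% of its 299 UMIs to 1 nucleus. Ependymal marker UMIs in these nuclei had medians of 1 to 4 per library, compared with 15 to 39 in the ependymal-like nuclei. Their part in the levels was not tested.

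Outside these classes several members had a level of their own. Dnah3 stood at 52.3 CPM in endothelial nuclei (39 UMIs in 27 of 140 nuclei, 19.3%, against 0.723% of microglia), compared with 4.14 CPM over all nuclei other than the ependymal-like. Dnah3 overlaps Lyrm1 on the other strand. Median depth was 3380.5 UMIs in endothelial nuclei and 1886 UMIs in microglia. Both endothelial clusters had Rgs5, a pericyte or smooth muscle marker, among their leading genes, so the class may hold such cells too. Dnah5 stood at 43.4 CPM in oligodendrocyte precursors (39 UMIs in 26 of 220 nuclei, 11.8%), and it was found in 0.508% of oligodendrocytes (median depth 2145 UMIs, against 3327.5 in the precursors). Dnah7b stood at 69.6 CPM in astrocytes (111 of 484 nuclei, 22.9%) and 56.7 CPM in oligodendrocyte precursors (42 of 220, 19.1%), but was found in 1.20% of microglia (median depth 1886 UMIs, against 3200.5 in astrocytes). Cfap74 stood at 92.7 CPM in microglia (82 of 415 nuclei, 19.8%) and was found in 1.44% of oligodendrocytes. In each case the level exceeded that in the free RNA of low-count barcodes, which was 2.86 CPM for Dnah3, 8.53 CPM for Dnah5, 6.36 CPM for Dnah7b and 21.2 CPM for Cfap74. Among neurons, Dnah17 stood at 12.6 CPM and Rsph3a at 28.0 CPM in GABAergic nuclei, against 2.05 and 7.49 CPM in free RNA. In the class of other neurons Cfap54, Cfap69 and Dnah9 stood at 59.1, 58.9 and 42.9 CPM, and free RNA gave 36.3, 26.5 and 16.8 CPM.

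Other cilium genes were listed by function to set the members in context. Genes for dynein assembly, docking and the nexin link followed the members closely, with 32 of 40 tested at 10-fold or more and a median ratio of 34.5. Among motile cilium regulators 5 of 11 were at 10-fold or more, with a median of 8.56. Foxj1 and Trp73 are on the marker list that named the class, so their ratios are not independent of the naming. Foxj1 was 102-fold higher (74.2 to 139), Trp73 82.8-fold, Rfx2 71.4-fold and Myb 47.9-fold. Cdc20b passed with 3 UMIs. Rfx3, which is widely used in brain, was 2.84-fold higher, Rfx4 was highest in astrocytes, and Gmnc, an early inducer of multiciliated cells, was at 16.0 CPM in ependymal-like but 631 CPM in choroid plexus-like nuclei. Genes of the primary cilium and of intraflagellar transport, a list that also holds receptors and signalling genes of particular primary cilia such as Sstr3, Mchr1 and Adcy3, gave 0 of 37 at 10-fold or more and a median ratio of 2.85, though 24 of them were highest in ependymal-like nuclei.

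Promoters of the members were then searched for letters of the X-box, the site of RFX factors, which act with Foxj1 on motile cilium genes. RefSeq windows of 300 bases, from 250 before to 50 after the start, were at hand for 51 members. The letters GTTNC and GNAAC with 3 or 4 bases between them were chosen after the members' promoters had been read, so the count below is a description. They were found on either strand in 14 of the 35 members at 10-fold or more (40.0%), in 2 of the 16 other members (12.5%) and in 2.29% of all 27025 genes with a window. The shorter GTTGCC, which lies inside some of these matches, was found in 42.9%, 25% and 14.1%, and the forkhead-like TGTTTA in 22.9%, 31.2% and 15.1%. Matches are shown for 11 members at 10-fold or more, with 20 bases on each side, because they include at least 1 member of every role group. Sequences are from RefSeq on GRCm38.p6, read 5′ to 3′ on the gene's strand, with the matched letters in capitals.
Hydin (chr8:110266936-110266989, plus strand): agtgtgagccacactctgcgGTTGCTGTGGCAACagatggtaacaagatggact
Spag16 (chr1:69826847-69826900, plus strand): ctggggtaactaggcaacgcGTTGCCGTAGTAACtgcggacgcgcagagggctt
Dnah6 (chr6:73221635-73221687, minus strand): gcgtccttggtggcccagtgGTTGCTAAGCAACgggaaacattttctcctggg
Dnah7a (chr1:53706809-53706861, minus strand): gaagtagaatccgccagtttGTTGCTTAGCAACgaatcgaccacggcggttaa
Dnah7b (chr1:46066809-46066861, plus strand): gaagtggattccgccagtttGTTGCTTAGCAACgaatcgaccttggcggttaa
Dnah7c (chr1:46425429-46425481, plus strand): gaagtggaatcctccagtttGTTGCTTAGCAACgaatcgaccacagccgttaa
Dnah9 (chr11:66168601-66168653, minus strand): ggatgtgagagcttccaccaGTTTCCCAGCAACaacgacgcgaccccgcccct
Dnaic1 (chr4:41569755-41569807, plus strand): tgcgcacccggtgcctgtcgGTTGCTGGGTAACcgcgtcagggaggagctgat
Cfap61 (chr2:145934756-145934809, plus strand): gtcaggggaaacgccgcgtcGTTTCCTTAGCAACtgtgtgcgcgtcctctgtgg
Cfap45 (chr1:172521091-172521144, plus strand): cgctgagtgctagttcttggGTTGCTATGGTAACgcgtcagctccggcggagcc
Cfap44 (chr16:44394752-44394805, plus strand): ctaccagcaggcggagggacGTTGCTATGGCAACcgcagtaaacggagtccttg

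These matches began between 103 bases before and 8 bases before the RefSeq start in the members shown. By the annotation used for gene positions the Dnah7b and Cfap45 matches lie inside the gene after its start, the Dnaic1 match begins at the first base of the gene, and the Cfap61 match runs across its start. Dnah7a, Dnah7b and Dnah7c held the same 13 letters, so they count as copies and not as separate instances. Dnah12, the member with the highest ratio, had no match, but its RefSeq window lies 1720 bases from the start in the annotation used for gene positions. Spag9, the member with the most UMIs outside ependymal-like nuclei, had none either. A match is a string of letters and not a measured site, and no match says only that these letters are not in this window.

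The remaining comparisons ask whether the axoneme genes changed after injury in the cells that carry motile cilia. Summed over the members, ependymal-like nuclei held 18478 CPM in sham control and 15172, 26689 and 23549 CPM on days 1, 3 and 7. Day 1 was the lowest library and day 3 the highest. The ratios to sham control were 0.821 (0.772 to 0.873), 1.44 (1.37 to 1.52) and 1.27 (1.20 to 1.36). Gene by gene, 33 of the 44 members tested were under sham control at day 1, with a median log2 ratio of -0.26 beside 0.06 over all genes tested. At day 3, 41 of 45 were over sham control (median 0.56 beside 0.05), and at day 7, 34 of 43 were (median 0.34 beside 0.09).

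Those medians did not stand under other weightings of the nuclei. When every nucleus counted alike, as the mean of its own CPM, the medians were -0.44, -0.05 and -0.17, and thinning each nucleus to 1000 UMIs gave -0.44, -0.06 and -0.18, so that the direction at day 3 and day 7 turned. When ependymal-like nuclei were taken by marker UMIs instead of clusters, the medians were 0.07, 0.25 and 0.04. The day 1 median was also over 0 without integration of the libraries (0.09) and with the choroid plexus-like nuclei kept in (0.11). The choroid plexus-like nuclei, at a lower member level, held 118334 UMIs in sham control and 17514, 23271 and 34153 on days 1, 3 and 7. Their part in the pooled values was not tested. A few large nuclei carried the sums: the nucleus with the most member UMIs held 23.3%, 28.9%, 31.5% and 56.2% of them, sham control first. Without that nucleus in each library the summed ratios were 0.718, 1.33 and 1.25. The member share per nucleus had medians of 2.22%, 1.85%, 2.28% and 2.09% in the order of the libraries, with ranges that overlapped throughout (lowest values 0.542 to 1.65%, highest 2.72 to 3.83%). Median depth per nucleus was 4714, 14946, 3137 and 8114 UMIs. Depth was thus highest in the library with the lowest share and lowest in the library with the highest, and its part in the differences was not tested.

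**Figure D3:**
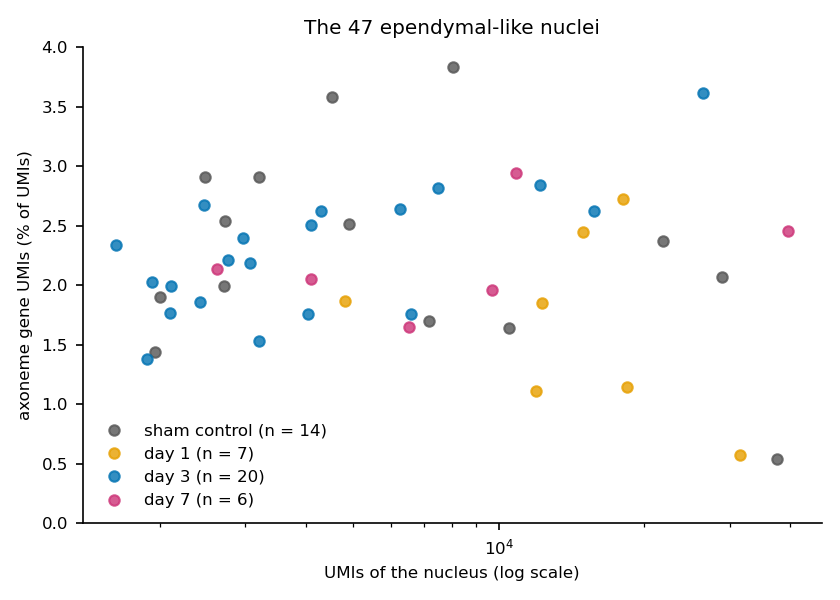
The 47 ependymal-like nuclei, with the total UMIs of each nucleus on a logarithmic axis and the percent of them that came from the members, coloured by library. The shares of the 4 libraries overlap, with medians of 2.22%, 1.85%, 2.28% and 2.09% from sham control to day 7.

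Few members passed the call rule, a change of at least 2-fold with a counting interval that leaves out 1. At day 1, 0 members were called higher (background 5.95% of 5240 genes tested) and 3 lower (background 4.45%). Dnah14 went from 10 UMIs in sham control to 0, 1 and 1 on days 1, 3 and 7, and the interval of its day 1 ratio reached up to 0.552. It passed the minimum of 10 UMIs only through sham control, where it was high, so its calls are a description. Cfap61 stood at 678, 321, 916 and 857 CPM, sham control first, so only day 1 was low, with a ratio of 0.474 (0.313 to 0.703). Dnah3 stood at 555, 259, 775 and 830 CPM in the same order, with a day 1 ratio of 0.466 (0.293 to 0.723). All 3 genes overlap another gene, Cfap61 overlaps Crnkl1 and Dnah3 overlaps Lyrm1 on the other strand, and the part of this overlap was not tested. The lower calls numbered 1 with cilium genes in the clustering, with the choroid plexus-like nuclei kept in, by marker UMIs and without integration, and 0 without overlapping genes. Under these settings the share of all genes called was not taken.

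At day 3, 3 members were called higher (background 3.89% of 5069 genes tested) and 1 lower (background 6.41%). Cfap221 stood at 144, 152, 352 and 218 CPM, a day 3 ratio of 2.44 (1.39 to 4.41), and the day 3 library was the highest of the 4. Cfap36 stood at 86.6, 89.2, 220 and 95.2 CPM (2.54, 1.23 to 5.56) and Cfap52 at 137, 71.4, 299 and 231 CPM (2.18, 1.21 to 4.05). In all 3 genes the ratios at day 1 and day 7 had intervals that held 1. After thinning each nucleus to 1000 UMIs 0 members were called higher at day 3, with nuclei taken by marker UMIs 1 was, and with the choroid plexus-like nuclei kept in 14 were. The share of all genes called was not taken under these alternatives. Dnah14 was the lower call, on 1 UMI against 10 (ratio 0.122, 0.00281 to 0.858), and it again passed the minimum only through sham control. With a minimum of 30 UMIs 0 members were called lower. At day 7 no member was called in either direction, beside a background of 5.57% higher and 6.17% lower among 4395 genes tested. The members called came to at most 3 in either direction on any day.

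**Figure D4:**
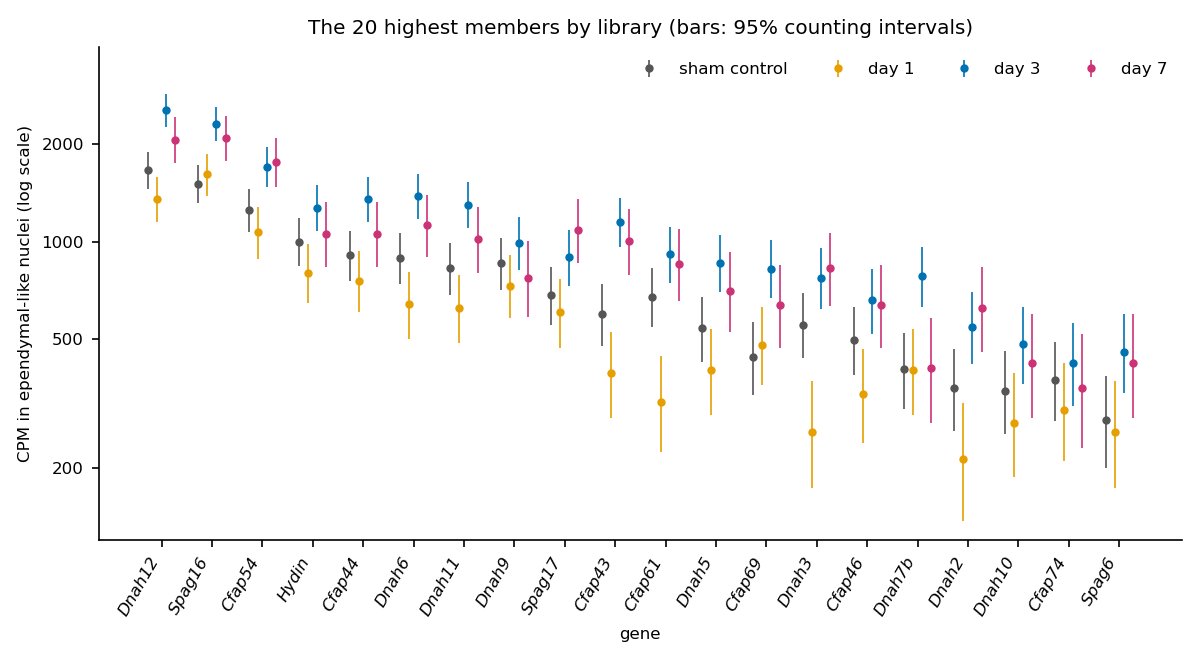
Level of the 20 members with the highest CPM in ependymal-like nuclei, 1 point per library with 95% counting intervals, on a logarithmic axis. Day 1 is the lowest library for most genes and day 3 the highest, and the intervals of neighbouring libraries often overlap.

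By role, the summed level at day 1 was under sham control in all 7 groups, and with an interval that left out 1 in 4 of them, from 0.730 (0.644 to 0.827) for inner arm heavy chains to 0.909 (0.819 to 1.01) for the central pair. At day 3 it was over sham control in all 7, from 1.31 (1.03 to 1.67) for tektins and tubule-lumen proteins to 1.74 (1.09 to 2.80) for the intermediate chains. All groups were summed over the same few nuclei, so they are not separate instances. The day 3 median over the members changed sign when every nucleus counted alike or was thinned. Other cilium genes in the same nuclei gave day 3 ratios of 1.53 (1.41 to 1.66) for assembly and docking, 1.49 (1.23 to 1.80) for regulators and 1.43 (1.27 to 1.61) for the primary cilium. At day 1 the same lists gave 0.925 (0.843 to 1.02), 0.987 (0.796 to 1.22) and 0.987 (0.864 to 1.13), and the axoneme sum 0.821 (0.772 to 0.873). The difference between the lists was not tested.

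Neurons held most member UMIs outside the ependymal cells, and there the summed level scarcely moved: 820 CPM in sham control and 858, 821 and 846 CPM on days 1, 3 and 7. The ratios to sham control were 1.05 (1.02 to 1.08), 1.00 (0.977 to 1.03) and 1.03 (1.00 to 1.06), with median log2 ratios of 0.07, -0.07 and -0.07 over 56 members. Without Spag9, the member with the most UMIs there, the summed ratios were 1.10, 1.02 and 1.09. By role, outer arm heavy chains stood at 2.11 (1.86 to 2.39), 1.36 (1.20 to 1.54) and 1.84 (1.61 to 2.09). The other role groups lay between 0.783 and 1.21. At day 1, 2 members were called higher (background 2.94% of 18073 genes tested) and 0 lower (background 1.04%). At day 3 the counts were 0 higher (background 1.28% of 18415) and 1 lower (1.29%), and at day 7 they were 3 higher (2.07% of 17961) and 2 lower (1.48%).

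Outer arm heavy chains supplied both calls at day 1. Dnah17 stood at 5.66, 16.6, 4.86 and 7.42 CPM, sham control first, from 78 UMIs in sham control and 182 on day 1, and free RNA held 2.05 CPM. Day 1 alone was high, with a ratio of 2.94 (2.24 to 3.88). The day 1 ratio was 2.20 (1.47 to 3.33) in glutamatergic neurons, 3.13 (1.41 to 7.63) in GABAergic neurons, 4.27 (1.98 to 9.97) in striatal projection neurons and 3.43 (2.03 to 6.01) in other neurons. With neuronal clusters weighted as in sham control it was 2.93. Pgs1, which overlaps Dnah17 on the other strand, stood at 21.5, 22.2, 21.2 and 21.7 CPM in the 4 libraries. Gm11738, an antisense transcript that overlaps it on the same side as Pgs1, gave 0, 9, 4 and 3 UMIs, or 0.822 CPM at day 1, and its part in the Dnah17 values was not tested.

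Dnah9 stood at 16.2, 36.2, 26.1 and 37.4 CPM in the same order, from 224 UMIs in sham control, and free RNA held 16.8 CPM. All 3 injured libraries were above sham control, and day 1 and day 7 passed the call rule at 2.23 (1.89 to 2.64) and 2.30 (1.95 to 2.72). The day 7 ratio was 2.99 (2.33 to 3.88) in glutamatergic, 2.96 (1.32 to 7.27) in GABAergic and 1.66 (1.29 to 2.14) in other neurons. Striatal projection neurons stood at 6.37, 10.4, 4.45 and 5.58 CPM, under sham control on days 3 and 7 with ratios of 0.699 (0.329 to 1.44) and 0.876 (0.381 to 1.90). The level was also uneven between clusters. A glutamatergic cluster of 115 nuclei led by genes that included Tspan18, Gm12296 and Shisa6 held 226, 216, 250 and 178 CPM of Dnah9 in the 4 libraries, and it held 4, 18, 48 and 45 nuclei of those libraries. Gm12296, a transcript on the other strand that overlaps Dnah9 and was open to the clustering, stood at 24.0, 38.3, 29.5 and 51.4 CPM over all neurons. With neuronal clusters weighted as in sham control the Dnah9 ratios fell to 1.89 at day 1 and 1.70 at day 7, under 2-fold.

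Spag16 stood at 7.40, 7.95, 11 and 16.1 CPM, with day 7 the highest and a ratio of 2.18 (1.70 to 2.80). It stood at 25.5 CPM in GABAergic and 21.4 CPM in glutamatergic neurons at day 7, against 3.52 and 11 CPM in sham control. In striatal projection neurons it went from 2.12 to 2.54 CPM (1.19, 0.299 to 4.37) and in other neurons from 7.80 to 13.4 CPM (1.72, 1.05 to 2.85). The counts were uneven between clusters. A GABAergic cluster of 168 nuclei went from 1 UMI in sham control to 23 at day 7, and a glutamatergic cluster of 477 nuclei from 2 to 48. In the other direction a glutamatergic cluster of 168 nuclei went from 8 UMIs to 1, and one of 390 nuclei from 5 to 0. Free RNA of low-count barcodes, summed over the libraries, held 11.3 CPM of Spag16, which lies above the neuronal level in sham control. With neuronal clusters weighted as in sham control the ratio was 2.03. The other calls rested on few UMIs. Cfap57 went from 9 UMIs in sham control to 21 at day 7 (2.88, 1.26 to 7.13), Tekt1 from 22 to 6 (0.336, 0.112 to 0.855), Cfap53 from 27 to 5 (0.228, 0.0687 to 0.601), and Rsph6a from 8 to 2 at day 3 (0.199, 0.0206 to 0.999). Free RNA held 3.42 CPM of Cfap57, 8.41 CPM of Tekt1 and 2.99 CPM of Cfap53, above the neuronal levels of these genes in sham control (0.653, 1.60 and 1.96 CPM) and at day 7 (1.88, 0.536 and 0.447 CPM). For Rsph6a free RNA held 0.489 CPM against 0.580 CPM in sham control and 0.116 CPM at day 3. After subtraction of a free RNA share of 2.65 to 4.48% of the UMIs per library, 3 members were called higher and 2 lower at day 7, and 0 were called lower at day 3. These are counts alone and do not say that the same members were called. Tekt1, Cfap53 and Rsph6a passed the minimum of 10 UMIs only through sham control and Cfap57 only through day 7, in each case where the gene was high, so these 4 calls are a description.

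**Figure D5:**
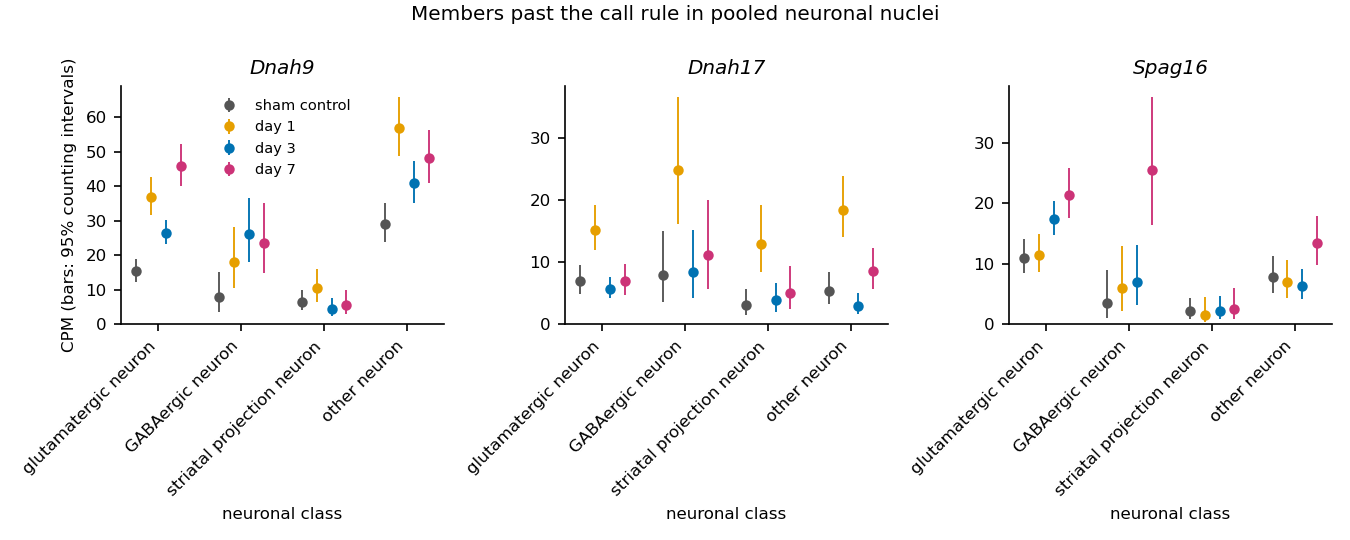
CPM of Dnah9, Dnah17 and Spag16 in 4 neuronal classes, 1 point per library with 95% counting intervals. Dnah17 is highest at day 1 in every class, Dnah9 is above sham control on all 3 days in glutamatergic, GABAergic and other neurons, and Spag16 is highest at day 7 in every class, although its day 7 interval is clear of the other 3 libraries only in GABAergic neurons.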

How the data were processed

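Single-nucleus RNA sequencing (10x 3′ v3.1) was done on 4 libraries, 1 per group, each of 3 pooled hemispheres. The authors deposited raw UMI counts per gene and barcode, introns included, made with STAR 2.7.3a (STARsolo) on GRCm38 with GENCODE vM8 genes. The strand setting is not given in the sources used here. No per-sample column was left unused (0).

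From these counts, nuclei were called with a re-implementation of emptyDrops (barcodes at or under 1000 UMIs as background, 10000 Monte Carlo draws, false discovery rate 0.001), which left 1026 to 3174 nuclei per library. Scrublet (scanpy 1.11.5) then marked 8 to 81 putative doublets per library for removal. Nuclei were clustered in R 4.3.3 with Seurat 5.3.0 (SCTransform, anchor integration), with the members and the other listed cilium genes kept out of the features, and named from marker lists. The split of the ependymal and choroid plexus cluster was chosen after seeing the data. The steps were tested on simulated data.

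UMIs were summed per class and library and given as CPM, UMIs of a gene per 1000000 UMIs of the class. Intervals (95%) are exact Poisson for levels, exact conditional binomial for ratios and Clopper-Pearson for shares. They cover counting error only, and no test between groups was possible with 1 library each. A gene was tested with at least 10 UMIs. The call rule was 10-fold between classes, and 2-fold with an interval leaving out 1 after injury. Log2 ratios used 0.5 UMI as prior. A count of 0 was bounded by 3 UMIs. Named with values are the 20 members with the highest ependymal-like CPM, members with at least 30 UMIs that were highest elsewhere, members past the call rule, and the deepest and least counted of each role. Any others named were chosen after their values were seen. The members and gene lists were chosen with earlier results of these data known. Alternatives varied the calling, doublets, clustering, scaling (edgeR 4.0.16 for TMM), depth, count minimum and overlapping genes. Gene spans and overlaps came from a GENCODE annotation of GRCm38, which held all 63 members, and promoters from RefSeq.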

Additional observations from a re-analysis of the deposited data

Results flagged for a closer look

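In 2 members the day 1 ratio to sham control lay on opposite sides of 1 in ependymal-like and neuronal nuclei, with counting intervals that left out 1 in both classes. Other members lay on opposite sides with an interval that held 1 in at least 1 class. Cfap61, a radial spoke protein, had a ratio of 0.474 in ependymal-like and 1.49 in neuronal nuclei. Dnah3, an inner arm heavy chain, had 0.466 and 1.71. Over the alternatives the ependymal-like ratio ranged from 0.368 to 0.679 for Cfap61 and from 0.403 to 0.747 for Dnah3. It was no longer a call with cilium genes in the clustering, with choroid plexus-like nuclei kept in, by marker UMIs, without integration or after thinning. Cfap61 overlaps Crnkl1 and Dnah3 overlaps Lyrm1 on the other strand, and leaving out overlapping genes removes both. Each value compares 1 library with 1 other, and the difference between the classes was not tested.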

How the results depend on the processing

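Of 341 alternative values of the main results, 270 stayed within the spread or 1.5 times of the value reported and 71 moved. Among the 71, the ependymal median on each day and the neuronal median at day 1 changed sign under some settings, as the signs of the values below show. Of those for single members, 415 stayed, 56 moved and 25 were weaker. The causes were not tested. No paired analysis was possible because each group held 1 library. Without 1 library at a time, 40 to 41 members were at 10-fold or more and 44 to 48 were highest. Keeping the ependymal and choroid plexus nuclei together, leaving out a library and weighting neuronal clusters were chosen after seeing the data. The ependymal-like injury values rest on 6 to 20 nuclei per library.

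In ependymal-like nuclei the median log2 ratio at day 1 was -0.33 with TMM, 0.11 with choroid plexus nuclei kept in, 0.070 with nuclei taken by marker UMIs, -0.11 without overlapping genes, 0.090 without integration, -0.44 as the mean over nuclei, -0.44 after thinning and -0.46 without the top nucleus. At day 3 it was 0.68 with cilium genes allowed in the clustering, 0.87 with choroid plexus nuclei, 0.25 by marker UMIs, -0.053 as the mean over nuclei, -0.060 after thinning and 0.42 without the top nucleus. At day 7 it was 0.039 by marker UMIs, -0.17 as the mean over nuclei and -0.18 after thinning.

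The share of all genes called was taken under the main settings only, so the counts here and for neurons have no background beside them. Members called higher in ependymal-like nuclei were 1 at day 1 by marker UMIs and without integration. At day 3 they were 14 with choroid plexus nuclei, 1 by marker UMIs, 1 without overlapping genes and 0 after thinning. At day 7 they were 2 with choroid plexus nuclei and 1 without the top nucleus. Members called lower at day 1 were 1 with cilium genes in the clustering, with choroid plexus nuclei, by marker UMIs and without integration, and 0 without overlapping genes. At day 3 they were 2 by marker UMIs, as the mean over nuclei, with median-of-ratios factors and with a minimum of 1 UMI, and 0 without overlapping genes, with a minimum of 30 UMIs and without the top nucleus. At day 7 they were 1 after ambient subtraction, with choroid plexus nuclei and by marker UMIs.

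In neurons the day 1 median was -0.11 without overlapping genes and 0.24 after thinning. Members called higher at day 1 were 0 without overlapping genes, and 1 as the mean over nuclei and with clusters weighted as in sham control. Members called lower at day 1 were 1 after ambient subtraction and with doublets kept. Members called lower at day 3 were 0 with TMM, median-of-ratios factors, ambient subtraction, no integration, a minimum of 30 UMIs and thinning. At day 7, 1 was called higher without overlapping genes and after thinning, and 1 lower with every barcode over 1000 UMIs, without overlapping genes, with a minimum of 30 UMIs and with doublets kept. Without overlapping genes, 16 members were at 10-fold or more and 16 highest in ependymal-like nuclei.

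The share of member UMIs in ependymal-like nuclei was 15.7% in sham control with cilium genes in the clustering. With choroid plexus nuclei it was 19.5, 14.0, 15.3 and 14.6% in sham control, day 1, day 3 and day 7. By marker UMIs it was 13.8% in sham control and 9.11% at day 1, and 10.9% at day 1 without integration. At day 3 it was 13.5% with every barcode over 1000 UMIs and 14.0% with doublets kept.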
